A study of Danio rerio with 4 samples.

Results

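The globin and red cell genes examined here encode hemoglobin chains and proteins that the red cell needs to make heme and to carry gas. Hemoglobin is built from alpha and beta globin chains, each of which holds a heme group. Alas2 is the red cell form of the enzyme that starts heme synthesis, Slc4a1a is the zebrafish band 3 protein, which exchanges chloride for bicarbonate across the red cell membrane, and cahz encodes a carbonic anhydrase of red cells. Zebrafish red cells keep their nucleus and carry RNA, so these transcripts are measured wherever blood remains in a tissue. The genes were chosen by name, as rows whose feature name equals hbaa1, hbaa2, hbba1, hbba2, alas2, slc4a1a or cahz. Of these 7 symbols, 4 are rows of the 2 deposited tables of 31388 rows: hbaa1, alas2, slc4a1a and cahz.

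RNA sequencing was done on heart ventricles of adult zebrafish aged 6 months to 1 year, in 4 libraries with 1 library per group. The groups were dusp6 pt30a/pt30a mutant fish 20 days post amputation (dpa), wild-type (WT) AB* fish at 20 dpa, uninjured dusp6 pt30a/pt30a fish and uninjured WT AB* fish. At 20 dpa the ventricle had been partly resected and left to regenerate, and the mutated gene encodes a phosphatase that acts on the kinase ERK. The labels do not say how many ventricles entered a library, nor whether the mutant fish share the WT background.

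The libraries held between 55197408 and 63222206 counts, of which mitochondrially encoded genes took 17.7% to 18.7%. Levels below are CPM, the counts divided by the TMM-scaled library size. The order of the levels of different genes is given as RPKM, which divides by gene length. Ratios and shares of counts between genes do not divide by length, so they compare libraries and not the levels of the genes. The dusp6 transcript itself was at 121 CPM in dusp6 20 dpa and 105 CPM in WT 20 dpa, and at 183 CPM in dusp6 uninjured and 85.03 CPM in WT uninjured. It does not check the labels, which leave unsaid whether the allele lowers its own transcript. Folds between single libraries carry 95% counting intervals, which cover counting error only, and have no replicate check. The columns of the 20 dpa libraries were named by another pattern than those of the uninjured libraries, and no batch is labelled, so effects of injury and of how the libraries were prepared cannot be told apart. In bulk tissue, more red cells and more RNA per red cell cannot be told apart either.

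The gene hbaa1 (ENSDARG00000097011), which encodes an adult alpha globin chain, rose after resection. It was measured at 5025 CPM in dusp6 20 dpa and 6536 CPM in WT 20 dpa, against 2407 CPM in dusp6 uninjured and 3215 CPM in WT uninjured. Both resected libraries lay above both uninjured libraries. The share of all genes with this order was not counted, for hbaa1 or for the genes below, so the order is not read as particular to them. A wider condition, being higher at 20 dpa in both genotypes, held for 35.5% of all genes tested. The fold was 2.09 in dusp6 (interval 2.07 to 2.10) and 2.03 in WT (2.02 to 2.04). In an additive fit of genotype and injury over the 4 libraries (edgeR's quasi-likelihood test with Benjamini-Hochberg adjustment over 15621 genes) the injury log2 fold change was 1.04 with an adjusted p of 0.0484. Called for injury was 1 of the 4 genes, hbaa1, where 0.538% of all tested genes were called higher and 0.282% lower. The fit has 1 residual degree of freedom, which is the difference between the genotypes' injury responses, so that difference cannot be tested; at an unadjusted p under 0.05 it gave 27.4% of all genes. The call was lost with scaling by total counts (adjusted p = 0.0531), with a floor of 250 counts (0.0636), without the genotype term (0.0846) and, in fits that also lack that term, without any 1 library (0.112 to 0.278). The loss is not particular to hbaa1. Of all genes, edgeR called 1 of 15621 with total counts, 0 of 11319 with that floor and 0 of 15621 without the genotype term. DESeq2 called 3 of the 4, hbaa1, cahz and slc4a1a, all higher, where it called 5.5% of 14106 genes higher and 4.45% lower.

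The gene cahz (ENSDARG00000011166) was at 520 CPM in dusp6 20 dpa and 527 CPM in WT 20 dpa, against 279 CPM in dusp6 uninjured and 375 CPM in WT uninjured. Its resected libraries were nearly level and lay above both uninjured libraries. The resection fold was 1.87 in dusp6 (interval 1.832 to 1.904) and 1.41 in WT (1.38 to 1.43), and the injury log2 fold change of 0.70 did not pass the test (edgeR quasi-likelihood, Benjamini-Hochberg adjusted p = 0.0827).

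The gene slc4a1a (ENSDARG00000012881) was at 250 CPM in dusp6 20 dpa and 239 CPM in WT 20 dpa, against 151 CPM in dusp6 uninjured and 181 CPM in WT uninjured. As with cahz, the resected libraries were close to each other and above the uninjured libraries. The fold was 1.66 in dusp6 (interval 1.61 to 1.70) and 1.32 in WT (1.29 to 1.35), with an injury log2 fold change of 0.56 that did not pass the edgeR test (adjusted p = 0.0982).

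The heme synthesis gene alas2 (ENSDARG00000038643) stayed in a narrow range. It was at 413 CPM in dusp6 20 dpa and 466 CPM in WT 20 dpa, against 405 CPM in dusp6 uninjured and 425 CPM in WT uninjured. The libraries overlapped between states, since dusp6 20 dpa lay below WT uninjured. The fold was 1.02 in dusp6 (interval 1.00 to 1.04) and 1.098 in WT (1.08 to 1.12), and the injury log2 fold change was 0.08 (edgeR, adjusted p = 0.647). The dusp6 fold became 0.947 with scaling by total counts, below 1.

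**Figure D1:**
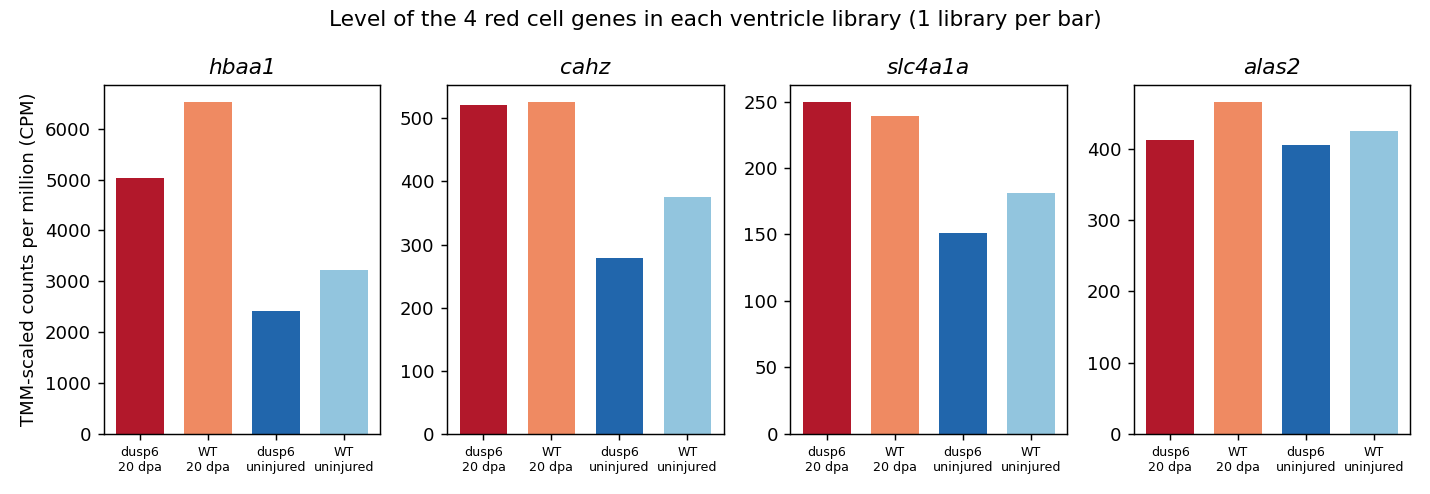
Level of hbaa1, cahz, slc4a1a and alas2 in CPM (vertical axis, a separate linear scale from 0 for each gene) in the 4 libraries, 1 bar per library. For the first 3 genes both 20 dpa bars stand above both uninjured bars, and the alas2 bars all lie between 405 and 466 CPM. The share of all genes with both 20 dpa libraries above both uninjured ones was not counted, so the order is not read as particular to these genes.

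All 4 genes were higher at 20 dpa in both genotypes (except alas2 in dusp6 with total counts, as above), against 35.5% of all genes tested, but the sizes differed. Past a fold of 2 there was 1 of 4 genes in dusp6 and 1 of 4 in WT, hbaa1 each time. Of all genes tested, 7.04% were that much higher and 8.89% that much lower in dusp6, and 7.22% and 5.48% in WT. On the same log2 scale the median injury change over the 4 genes was 0.63, against -0.01 over all genes tested. hbaa1 stood above 93.7% of all genes in dusp6 and above 93.0% in WT. cahz stood above 91.7% in dusp6 and 82.0% in WT, slc4a1a above 88.8% and 78.0%, and alas2 above 52.8% and 61.1%. These single-library folds of the genotypes were not tested against each other. Scaling by total counts lowered every fold by 0.11 on the log2 scale in dusp6 and by 0.09 in WT, and then no gene was past a fold of 2.

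Ratios of these genes within a library do not depend on library scaling. hbaa1 held 12.2 counts per count of alas2 in dusp6 20 dpa and 14.02 in WT 20 dpa, against 5.94 in dusp6 uninjured and 7.57 in WT uninjured. The counting intervals of these ratios did not overlap between any libraries, so the lack of overlap does not set the states apart. They were 12.0 to 12.3 in dusp6 20 dpa and 13.8 to 14.2 in WT 20 dpa. In dusp6 uninjured and WT uninjured they were 5.86 to 6.02 and 7.48 to 7.67. The count of cahz per count of alas2 was 1.26 in dusp6 20 dpa and 1.13 in WT 20 dpa, against 0.688 in dusp6 uninjured and 0.883 in WT uninjured. That of slc4a1a per count of alas2 was 0.606 in dusp6 20 dpa and 0.513 in WT 20 dpa, against 0.372 in dusp6 uninjured and 0.427 in WT uninjured. The anion exchanger and the carbonic anhydrase kept closer to each other, with 2.081 and 2.203 counts of cahz per count of slc4a1a in dusp6 20 dpa and WT 20 dpa, and 1.85 and 2.07 in dusp6 uninjured and WT uninjured. Relative to cahz, hbaa1 differed little between states in dusp6 (9.66 counts at 20 dpa and 8.64 uninjured) and more in WT (12.4 counts at 20 dpa and 8.58 uninjured).

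Per length, the order of the levels was the same in every library: hbaa1, then cahz, alas2 and slc4a1a. hbaa1 was at 4669 RPKM in dusp6 20 dpa and 6526 RPKM in WT 20 dpa, against 2400 RPKM in dusp6 uninjured and 3355 RPKM in WT uninjured. By RPKM it ranked 20th and 16th among all rows in these resected libraries, and 28th and 24th in these uninjured libraries. cahz was at 227 and 247 RPKM in dusp6 20 dpa and WT 20 dpa, against 131 and 184 RPKM in dusp6 uninjured and WT uninjured. alas2 lay between 110 and 134 RPKM in the 4 libraries, and slc4a1a between 36.0 and 57.1 RPKM. The gap between cahz and its neighbour alas2 was narrowest in dusp6 uninjured, at 1.13 times, and widest in dusp6 20 dpa, at 2.07 times; with 1 library per group no spread can be set beside it.

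The comparison of genotypes set homozygous carriers of the dusp6 allele against WT fish in each state. In uninjured ventricles all 4 genes were lower in dusp6 than in WT, against 48.4% of all genes tested. The fold was 0.744 for cahz (interval 0.729 to 0.758), 0.749 for hbaa1 (0.744 to 0.754), 0.832 for slc4a1a (0.809 to 0.854) and 0.954 for alas2 (0.938 to 0.970). At 20 dpa the fold of dusp6 over WT was 0.769 for hbaa1 (0.765 to 0.773), 0.885 for alas2 (0.869 to 0.901), 0.988 for cahz (0.972 to 1.00) and 1.05 for slc4a1a (1.02 to 1.07). Total-count scaling turned the slc4a1a fold to 0.983. None of the 4 was past a fold of 2 in either comparison, where 4.49% of all genes were that much higher and 3.67% that much lower in uninjured ventricles, and 3.57% higher and 5.05% lower at 20 dpa.

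In the additive fit 0 of the 4 genes were called for genotype, and 0.0064% of all genes were (edgeR's quasi-likelihood test). At an unadjusted p under 0.05 it gave hbaa1 alone of the 4, and 8.83% of all genes. The genotype log2 fold change of hbaa1 was -0.40 (edgeR's quasi-likelihood test, adjusted p = 0.410). DESeq2 called 0 of the 4 for genotype as well, and 149 of all 15621 genes. In TMM-scaled CPM each of the 4 genes had its lowest level in dusp6 uninjured, which was the lowest library for 28% of all genes tested. For alas2 this rested on the scaling, since by RPKM dusp6 20 dpa was lowest, at 110 RPKM, against 116 RPKM in dusp6 uninjured. The larger resection folds of cahz and slc4a1a in dusp6 thus stand on a lower uninjured level, and their 20 dpa levels differed between the genotypes by factors of 0.988 and 1.05.

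**Figure D2:**
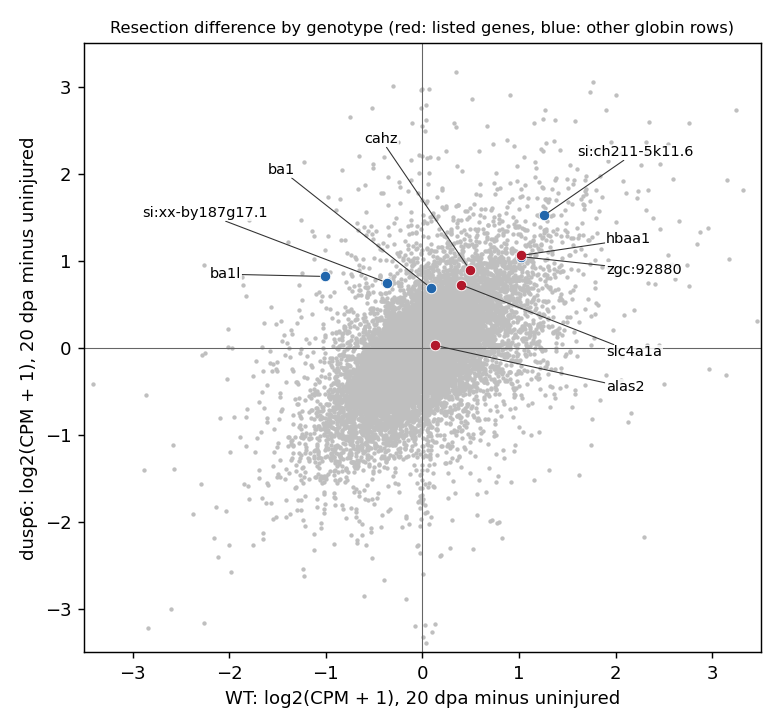
Difference in log2(CPM + 1) between 20 dpa and uninjured, in dusp6 (vertical axis) and WT (horizontal axis), with 1 grey point per tested gene, the 4 listed genes in red and 5 other adult globin rows in blue; 23 genes lie outside the axes. hbaa1, cahz, slc4a1a and alas2 lie above 0 on both axes (alas2 not in dusp6 with total counts), while ba1l and si:xx-by187g17.1 lie above 0 in dusp6 and below 0 in WT. The resection folds of 27.7% of all genes tested were in opposite directions in the genotypes.

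The symbols hbaa2, hbba1 and hbba2 are not row names, but RefSeq (assembly GRCz12tu) lists synonyms that are. These rows were looked up after values had been seen, so they are described beside the listed genes and not counted with them. Through RefSeq synonyms hbba1 is the row ba1 (ENSDARG00000089087), hbba2 is zgc:92880 (ENSDARG00000069734) and hbaa2 is si:ch211-5k11.6 (ENSDARG00000095948). In RefSeq they lie side by side with hbaa1 in the order hbaa2, hbba2, ba1l, hbaa1, hbba1 and si:ch211-5k11.8, followed by embryonic globin genes. The last adult one is the row si:xx-by187g17.1 (ENSDARG00000104064), which has hbaa1.2 among its synonyms, and ba1l (ENSDARG00000097238) is a beta globin gene. Adult globin genes are known as close copies of each other. No sequences were compared here, and the tables do not say how reads that match several genes were counted, so the split of counts between these rows is uncertain, for hbaa1 too.

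The 6 adult globin rows together took 2.14% of all counts in dusp6 20 dpa and 1.92% in WT 20 dpa, against 1.31% in dusp6 uninjured and 1.80% in WT uninjured. In scaled counts the sum was 1.76-fold higher after resection in dusp6 (interval 1.75 to 1.76) and 1.13-fold higher in WT (1.13 to 1.13). The summed level at 20 dpa in dusp6 was 1.19 times that in WT, and in uninjured ventricles 0.763 times. In WT the fold of the sum was below that of hbaa1 alone, which was 2.03.

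The rows for hbaa2 and hbba2 followed hbaa1. si:ch211-5k11.6, the hbaa2 row, was at 380 CPM in dusp6 20 dpa and 390 CPM in WT 20 dpa, against 132 CPM in dusp6 uninjured and 162 CPM in WT uninjured. It rose in the additive fit (log2 fold change 1.40, edgeR adjusted p = 0.0484), with a fold of 2.89 in dusp6 and 2.40 in WT. zgc:92880, the hbba2 row, was at 588 CPM in dusp6 20 dpa and 604 CPM in WT 20 dpa, against 284 CPM in dusp6 uninjured and 296 CPM in WT uninjured. It rose as well (1.04, edgeR adjusted p = 0.0488), with a fold of 2.07 in dusp6 and 2.04 in WT. With total counts the folds of zgc:92880 were 1.93 in dusp6 and 1.92 in WT. Both calls were lost under the same settings as that of hbaa1.

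The other 3 rows hold most beta globin counts and the second alpha copy, and none of them passed the test. ba1, the hbba1 row, was at 7724 CPM in dusp6 20 dpa and 6912 CPM in WT 20 dpa, against 4801 CPM in dusp6 uninjured and 6495 CPM in WT uninjured. ba1l was at 2330 CPM in dusp6 20 dpa and 939 CPM in WT 20 dpa, against 1319 CPM in dusp6 uninjured and 1887 CPM in WT uninjured. si:xx-by187g17.1 was at 6737 CPM in dusp6 20 dpa and 3823 CPM in WT 20 dpa, against 4012 CPM in dusp6 uninjured and 4924 CPM in WT uninjured. For the last 2 rows WT 20 dpa was the lowest library and dusp6 20 dpa the highest. The resection fold of ba1 was 1.61 in dusp6 and 1.06 in WT. That of ba1l was 1.77 in dusp6 and 0.498 in WT, and that of si:xx-by187g17.1 was 1.68 in dusp6 and 0.776 in WT. These 2 of 6 globin rows moved in opposite directions in the genotypes, as did 27.7% of all genes tested, and this difference was not tested.

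**Figure D3:**
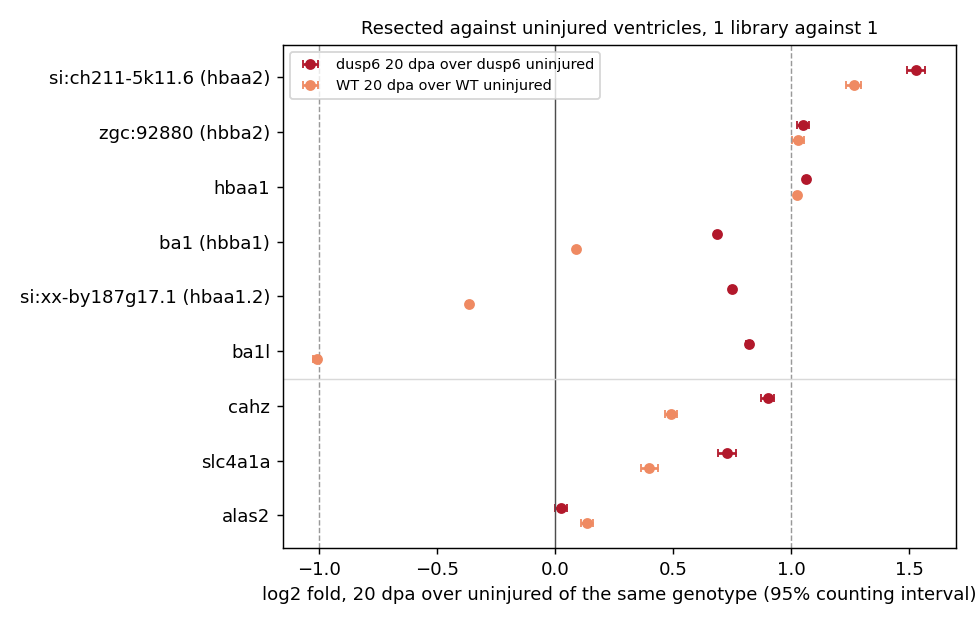
Log2 fold of 20 dpa over uninjured ventricles of the same genotype (horizontal axis) for the 6 adult globin rows, above the grey line, and for cahz, slc4a1a and alas2 below it; points are single-library folds with 95% counting intervals and dashed lines mark a fold of 2 either way. With TMM scaling the upper 3 globin rows lie past a fold of 2 in both genotypes. Of all genes tested, 7.04% were that much higher in dusp6 and 7.22% in WT. With total counts si:ch211-5k11.6 alone of these rows stays past it, at 2.68 in dusp6 and 2.26 in WT. ba1l and si:xx-by187g17.1 lie on opposite sides of 0 in the genotypes, as did 27.7% of all genes tested.

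The make-up of the globin counts set the WT 20 dpa library apart, with 1 library per group. It rests on the split of counts between these rows, which is uncertain as said above. hbaa1 made up 22.1% of the adult globin counts in dusp6 20 dpa and 34.03% in WT 20 dpa, against 18.6% in dusp6 uninjured and 18.9% in WT uninjured. The other abundant alpha row, si:xx-by187g17.1, made up 29.6% in dusp6 20 dpa and 19.9% in WT 20 dpa, against 31.0% in dusp6 uninjured and 29.0% in WT uninjured. Among the beta rows, ba1l made up 10.2% in dusp6 20 dpa and 4.89% in WT 20 dpa, against 10.2% in dusp6 uninjured and 11.1% in WT uninjured. The share of ba1 moved less, between 33.9% and 38.3% in the 4 libraries. The ratio of hbaa1 to si:xx-by187g17.1 counts was 0.746 in dusp6 20 dpa and 1.71 in WT 20 dpa, against 0.5999 in dusp6 uninjured and 0.653 in WT uninjured. The ratio of ba1 to ba1l counts was 3.31 in dusp6 20 dpa and 7.36 in WT 20 dpa, against 3.64 in dusp6 uninjured and 3.44 in WT uninjured.

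Sums of rows do not depend on how counts were divided between the rows summed. They still depend on any reads that were left uncounted or shared with other rows. The pairs were chosen after values were seen, and which rows share reads was not tested. hbaa1 and si:xx-by187g17.1 together were 1.83-fold higher after resection in dusp6 (interval 1.82 to 1.84) and 1.27-fold higher in WT (1.27 to 1.28). ba1 and ba1l together were 1.64-fold higher in dusp6 (1.64 to 1.65) and at 0.937 of the uninjured level in WT (0.933 to 0.940). All 3 alpha rows together had folds of 1.85 in dusp6 and 1.29 in WT, and all 3 beta rows together 1.66 and 0.974. For the alpha pair the summed fold was thus farther below the fold of hbaa1 alone in WT (2.03) than in dusp6 (2.09). The alpha rows summed to 1.31 times the RPKM of the beta rows in dusp6 20 dpa and 1.44 times in WT 20 dpa, against 1.199 times in dusp6 uninjured and 1.11 times in WT uninjured.

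**Figure D4:**
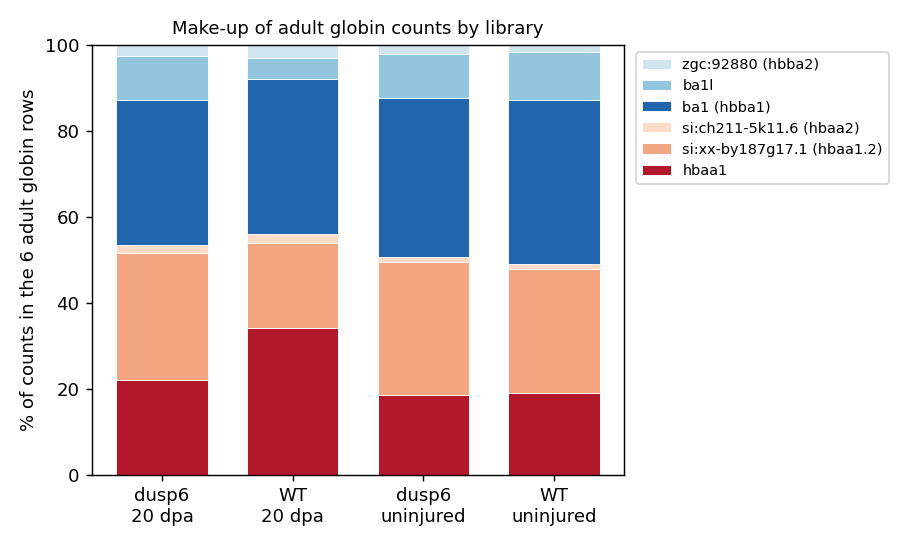
Share of each of the 6 rows in the adult globin counts of a library (vertical axis, in percent), 1 stacked bar per library, with alpha rows in red shades and beta rows in blue shades. The WT 20 dpa bar differs from the other 3 by a larger hbaa1 share (34.03%) and smaller shares of si:xx-by187g17.1 (19.9%) and ba1l (4.89%). The split of counts between these rows is uncertain.

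In the authors' deposited table, which sets each 20 dpa library against both uninjured libraries with an EDGE test, hbaa1 had a fold change of 1.80 (FDR 0.194) in dusp6 and 2.31 (FDR 0.00588) in WT. The authors' deposited table gave alas2 1.00 and 1.12, slc4a1a 1.52 and 1.43, and cahz 1.607 and 1.598, in dusp6 and in WT, with no FDR of these 3 genes below 0.508. For the hbaa2 and hbba2 rows the authors' deposited table gave 2.61 and 2.05 in dusp6 and 2.63 and 2.07 in WT, with FDR values between 0.000330 and 0.0246. The other 3 globin rows did not pass there, with no FDR below 0.429. The signed fold change of ba1 was 1.38 in dusp6 and 1.21 in WT. That of ba1l was 1.47 and -1.72, and that of si:xx-by187g17.1 was 1.52 and -1.18, so both were lower in WT. At an FDR under 0.05 that table held 1.40% of all rows in dusp6 and 1.53% in WT. Its comparisons share the uninjured libraries.

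Genes that act with the listed ones were taken as lists, and 0 of the 15 tested genes of heme synthesis were called for injury in the additive fit. At an unadjusted p under 0.05 there were 4, against 27.4% of all genes. DESeq2 called 2 higher and 0 lower, against 5.5% and 4.45% of all genes. The counts of the lists that follow stand against the same shares. DESeq2 gave an adjusted p for 13 of 15 membrane and skeleton genes and 14 of 15 iron and heme handling genes. The median injury log2 fold change was 0.23. The gene alas1, which encodes the form of the starting enzyme used outside red cells, was at 652 CPM in dusp6 20 dpa and 968 CPM in WT 20 dpa, against 236 CPM in dusp6 uninjured and 583 CPM in WT uninjured. Its injury log2 fold change of 1.098 did not pass the edgeR test (adjusted p = 0.0751), and its dusp6 uninjured library was the lowest. hmbsb, which encodes a later enzyme of the pathway, was at 12.8 CPM in dusp6 20 dpa and 10.9 CPM in WT 20 dpa, against 4.796 CPM in dusp6 uninjured and 6.26 CPM in WT uninjured. cpox, of a further step, was at 31.9 CPM and 34.7 CPM in these resected libraries, against 20.8 CPM and 27.9 CPM in the uninjured ones. In dusp6 2 of the 15 genes were past a fold of 2 higher and 1 lower, against 7.04% and 8.89% of all genes. In WT 0 were higher and 1 lower, against 7.22% and 5.48% of all genes.

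Among genes of the red cell membrane and its skeleton 0 of 15 were called, 2 had an unadjusted p under 0.05 and DESeq2 called 1 higher, with a median injury log2 fold change of -0.01. rhd and rhag encode membrane proteins of the Rh family. rhd was at 72.8 CPM in dusp6 20 dpa and 59.8 CPM in WT 20 dpa, against 46.5 CPM in dusp6 uninjured and 35.5 CPM in WT uninjured, while rhag was at 53.1 CPM and 47.2 CPM after resection, against 71.3 CPM and 65.1 CPM uninjured. Neither passed the edgeR test, with adjusted p-values of 0.0664 for rhd and 0.107 for rhag. tmod4, of a tropomodulin that caps actin filaments, lay between 12.5 and 16.9 CPM. Which cells of the ventricle the transcripts of this and the other red cell lists came from was not tested.

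Of 11 red cell enzyme genes 1 fell and 0 rose, against 0.282% and 0.538% of all genes. The median injury log2 fold change was 0.00. In the edgeR fit 6 of the 11 had an unadjusted p under 0.05, against 27.4% of all genes. DESeq2 gave an adjusted p for 9 of the 11. It called 2 lower and 1 higher, against 4.45% and 5.5% of all genes. The one that fell, cat, encodes catalase, which breaks down hydrogen peroxide in many tissues. It was at 82.9 CPM in dusp6 20 dpa and 77.8 CPM in WT 20 dpa, against 191 CPM in dusp6 uninjured and 166 CPM in WT uninjured (log2 fold change -1.15, edgeR adjusted p = 0.0489). The call was lost with total counts (adjusted p = 0.0531), with a floor of 250 counts (0.0636), without the genotype term (0.0656) and without any 1 library (0.0701 to 0.176). With total counts edgeR called 1 of all genes, and with that floor or without the genotype term 0, so the loss is not particular to cat. gpx1a, of a glutathione peroxidase, was at 37.85 CPM and 32.04 CPM in dusp6 20 dpa and WT 20 dpa, against 80.7 CPM and 83.8 CPM uninjured, and missed the threshold (adjusted p = 0.0520). bpgm encodes the enzyme that makes bisphosphoglycerate, which lowers the oxygen affinity of hemoglobin in mammals. It was at 72.9 CPM in dusp6 20 dpa and 47.4 CPM in WT 20 dpa, against 44.4 CPM in dusp6 uninjured and 27.8 CPM in WT uninjured, and did not pass (edgeR adjusted p = 0.0641).

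For iron and heme handling 0 of 15 tested genes were called, 4 had an unadjusted p under 0.05, and DESeq2 called 1 higher and 1 lower. The median injury log2 fold change was 0.19. tfr1b, of a transferrin receptor, was at 301 CPM in dusp6 20 dpa and 408 CPM in WT 20 dpa, against 100.3 CPM in dusp6 uninjured and 250 CPM in WT uninjured. Like alas1 it was lowest in dusp6 uninjured, where its fold over WT was 0.402 (interval 0.390 to 0.414). slc40a1, of the iron exporter ferroportin, was at 34.5 CPM in dusp6 20 dpa and 41.5 CPM in WT 20 dpa, against 112 CPM in dusp6 uninjured and 57.4 CPM in WT uninjured. The haptoglobin row hp_2 held between 1.64 and 4.54 CPM.

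Among erythroid regulators 0 of 15 tested genes were called, 4 had an unadjusted p under 0.05 and DESeq2 called 2 lower, with a median injury log2 fold change of -0.06. The signal transducer gene stat5a was at 2.49 CPM in dusp6 20 dpa and 2.65 CPM in WT 20 dpa, against 8.91 CPM in dusp6 uninjured and 6.30 CPM in WT uninjured (edgeR adjusted p = 0.0632). epor, of the erythropoietin receptor, was at 40.8 CPM in dusp6 20 dpa and 32.8 CPM in WT 20 dpa, against 54.9 CPM in dusp6 uninjured and 61.5 CPM in WT uninjured. bcl11aa, of a factor that represses fetal globin genes in human cells, lay between 3.004 and 6.422 CPM. Chosen after its values were seen, the red cell master factor gene gata1a was at 27.4 CPM in dusp6 20 dpa and 31.4 CPM in WT 20 dpa, against 15.2 CPM in dusp6 uninjured and 30.0 CPM in WT uninjured. Of the 15 regulators tested, 6 were lowest in dusp6 20 dpa, 3 in WT 20 dpa, 6 in dusp6 uninjured and 0 in WT uninjured. In the same order of libraries the shares of all genes tested were 24.6%, 26%, 28% and 21.4%.

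**Figure D5:**
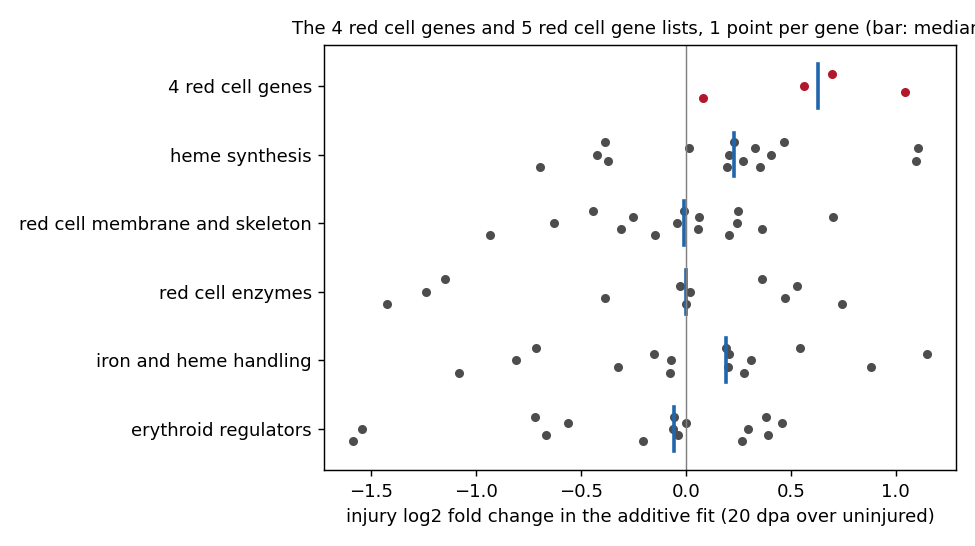
Injury log2 fold change in the additive fit (horizontal axis, 20 dpa over uninjured) for the 4 listed genes and for the tested genes of 5 red cell lists, 1 point per gene with the median as a blue bar; points are spread vertically only to be seen. All 4 listed genes lie above 0 (alas2 below it with total counts), with a median of 0.63, and the list medians lie between -0.06 and 0.23. Which cells of the ventricle the transcripts of the lists came from was not tested.

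Markers of other cell types were summed to set beside the red cell transcripts. The heart muscle gene myl7, of a cardiac myosin light chain made in both chambers, was at 17757 to 18934 CPM. The chamber genes, named after their values were seen, were uneven. vmhc, of the ventricular myosin heavy chain, was at 248 CPM in dusp6 20 dpa and 672 CPM in WT 20 dpa, against 722 CPM in dusp6 uninjured and 356 CPM in WT uninjured. myh6, of the atrial one, was at 250 CPM in dusp6 20 dpa and 145 CPM in WT 20 dpa, against 48.3 CPM in dusp6 uninjured and 86.6 CPM in WT uninjured. The 14 measured cardiomyocyte markers summed to 84517 CPM in dusp6 20 dpa and 78688 CPM in WT 20 dpa, against 77085 CPM in dusp6 uninjured and 73937 CPM in WT uninjured. The 14 endothelial markers summed to 1063 CPM and 1053 CPM in these resected libraries, against 922 CPM and 916 CPM in the uninjured ones. The 13 epicardial and fibroblast markers summed to 944 CPM in dusp6 20 dpa and 1266 CPM in WT 20 dpa. In dusp6 uninjured and WT uninjured they summed to 716 CPM and 590 CPM. Of them 1 rose, against 0.538% of all genes. It was aldh1a2, of a retinoic acid synthesis enzyme, named after its values were seen. At an unadjusted p under 0.05 edgeR gave 7 of these 13, against 27.4% of all genes. It gave 5 of 14 cardiomyocyte and 5 of 14 endothelial markers. DESeq2 called 4 epicardial and fibroblast and 4 endothelial markers higher and 0 lower, against 5.5% and 4.45% of all genes. Of the cardiomyocyte markers it called 1 higher and 1 lower. With total counts edgeR called 1 of all genes, and with a floor of 250 counts or without the genotype term 0. The aldh1a2 call (edgeR adjusted p = 0.0484) was lost with total counts (0.0531), with a floor of 250 counts (0.0636), without the genotype term (0.0656) and without any 1 library (0.0701 to 0.161).

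Markers of other blood cells were also summed. The 13 macrophage markers summed to 303 CPM in dusp6 20 dpa and 471 CPM in WT 20 dpa, against 359 CPM in dusp6 uninjured and 294 CPM in WT uninjured. In dusp6 the lower sum rested on cd74a, at 129 CPM at 20 dpa and 184 CPM uninjured, and cd74b, at 55.2 and 73.4 CPM. Other markers went both ways in dusp6. For example, named after values were seen, grn1 was at 40.7 CPM at 20 dpa and 19.5 CPM uninjured, and marco at 13.1 and 20.8 CPM. The 10 neutrophil markers summed to 22.2 CPM and 28.4 CPM after resection in dusp6 and WT, against 21.8 CPM and 11.5 CPM uninjured. Within the dusp6 sum mpx was at 1.86 CPM at 20 dpa and 6.92 CPM uninjured, and lyz at 4.06 and 1.27 CPM. The 9 thrombocyte markers summed to 100.5 CPM in dusp6 20 dpa and 130 CPM in WT 20 dpa, against 107 CPM in dusp6 uninjured and 143 CPM in WT uninjured. In WT this order rested on f13a1a.1, at 0.145 CPM in WT 20 dpa and 23.6 CPM in WT uninjured. Without it, a step chosen after its values were seen, the sums were 100.2 CPM in dusp6 20 dpa and 130.3 CPM in WT 20 dpa, against 106 CPM in dusp6 uninjured and 119 CPM in WT uninjured. The 13 lymphocyte markers summed to between 10.5 and 13.2 CPM, and ccr7 was at 0 in dusp6 20 dpa and dusp6 uninjured. 0 genes of these 4 blood lists were called for injury by edgeR, 10 of the 31 tested had an unadjusted p under 0.05, and DESeq2 called 2 higher. The part of any of these cells, or of atrial tissue, in the red cell results was not tested.

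The genes most like the mean profile of the 4 listed genes were found by Euclidean distance on centred log2(CPM + 1) over the 4 libraries, among 11315 other genes with at least 250 counts. The nearest 5 were si:dkey-27i16.2 (distance 0.0218), rer1 (0.0220), mrpl12 (0.0261), caskb (0.0372) and STT3B (0.0471). mrpl12, of a mitochondrial ribosomal protein, was at 64.0 CPM in dusp6 20 dpa and 69.4 CPM in WT 20 dpa, against 39.1 CPM in dusp6 uninjured and 49.3 CPM in WT uninjured. The listed genes lay farther from their own mean, with distances of 0.141 for slc4a1a, 0.157 for cahz, 0.490 for hbaa1 and 0.539 for alas2. With 4 libraries many genes share a profile, so likeness here is a description only.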

How the data were processed

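Per the file headers, the authors deposited gene-level counts, the RPKM computed from them, and, for an EDGE test, a signed fold change (a score), its p-value and its FDR. The uninjured columns were identical in both deposited tables and used once. The sources used here do not give the aligner, counting, strand or genome build, so no coordinates or sequences are printed.

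Genes with at least 50 counts in 1 or more libraries (15621) entered an additive edgeR 4.0.16 quasi-likelihood fit in R 4.3.3 (TMM factors 0.938 to 1.06, called at an adjusted p under 0.05). Single-library folds are ratios of scaled counts with exact conditional intervals; shares have exact binomial intervals. Counts are not independent molecules, so intervals cover counting error only. DESeq2 1.42.0 served as an alternative. Python 3.11.15 did the rest.

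On simulated counts for the injury comparison (15081 genes) the fit recovered 29.4% of 2-fold, 96.8% of 4-fold and 98.6% of 8-fold changes, with 5 false calls. The simulation gave every gene the same spread between libraries. It held no genotype effect and no difference between the genotypes' injury responses. These recovery and false call figures therefore do not carry over to the real libraries. Replicates are absent, so p-values of the real fit rest on the spread between genotypes' responses.

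The listed genes and 13 further gene lists (190 symbols, 173 with a row) were chosen with earlier results of these data known. Named were the listed genes, per red cell list up to 3 genes with the largest injury change and at least 250 counts plus any called, and the 5 nearest genes; per marker list the 2 with most counts, of which a subset is printed. Table identifiers were matched to the gene name table for 25925 of 31388 rows.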

Additional observations from a re-analysis of the deposited data

Results flagged for a closer look

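Of the 6 adult globin rows 2, ba1l and si:xx-by187g17.1, moved in opposite directions in the genotypes, as did 27.7% of all genes tested. ba1l had a resection fold of 1.77 in dusp6 and 0.498 in WT, and si:xx-by187g17.1 had a fold of 1.68 in dusp6 and 0.776 in WT. The difference between the genotypes was not tested, because each group holds 1 library. How reads that match several globin genes were counted is not given in the sources at hand. The sum of hbaa1 and si:xx-by187g17.1 had folds of 1.83 in dusp6 and 1.27 in WT, and that of ba1 and ba1l had folds of 1.64 and 0.937.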

How the results depend on the processing

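No paired analysis was possible because the labels give no replicate numbers and each group holds 1 library. Of the 4 listed genes, 1 was called for injury with TMM, with DESeq2's size factors in edgeR and with no filter on low counts, 3 with DESeq2, and 0 with total counts, with a floor of 250 counts, without the genotype term, and without any 1 library (0 to 0). Of all 15621 genes in the fit 128 were called (84 higher and 44 lower). Of the same 15621, 333 (191 and 142) were called with DESeq2's size factors, 1 (0 and 1) with total counts and 0 without the genotype term. The other settings tested other numbers of genes. They called 987 of 25049 (539 and 448) with no filter, 1404 of 14106 (776 and 628) with DESeq2 and 0 of 11319 with a floor of 250 counts. The adjusted p of hbaa1 ranged from 8.05e-09 to 0.278 over 11 settings and passed in 4. For genotype 0 of the 4 genes were called in each of the 11 settings. Past a fold of 2, 1 gene became 0 in dusp6 and 0 in WT with total counts, also with mitochondrial genes and the listed genes removed, or the other globin rows too (an alternative chosen after seeing the data), and a threshold of 1.5 gave 3 in dusp6 and 1 in WT. Without mitochondrial genes the globin share was 2.61% in dusp6 20 dpa, 2.34% in WT 20 dpa, 1.61% in dusp6 uninjured and 2.19% in WT uninjured. RPKM gives the same 20 dpa over uninjured change of each ratio of hbaa1 to the other listed genes as counts do. This follows from how RPKM is computed, since gene lengths and library sizes cancel, so it is no check. The injury log2 fold change of alas2 was -0.0143 with total counts and -0.0042 to 0.164 without 1 library. That of ba1l was 0.0278 without the genotype term and -0.778 to 0.542 without 1 library, and that of si:xx-by187g17.1 was -0.230 to 0.595. Fits without 1 library also lack the other term, so the states enter their genotype values unevenly. These genotype log2 fold changes were -1.02 to 0.205 for hbaa1, -0.484 to 0.250 for slc4a1a, -0.698 to 0.207 for cahz, -1.07 to 0.651 for si:ch211-5k11.6, -0.486 to 0.204 for ba1, -0.669 to 0.553 for zgc:92880, -0.105 to 0.959 for ba1l and -0.130 to 0.623 for si:xx-by187g17.1.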

Other observations

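Rows of embryonic globin genes also held counts, at low levels. Whether reads of other globin genes were counted in them was not tested. The row HBZ, which the gene name table calls hbae5, an embryonic alpha globin gene, was at 33.5 CPM in dusp6 20 dpa and 25.4 CPM in WT 20 dpa, against 16.2 CPM in dusp6 uninjured and 23.3 CPM in WT uninjured. Its resection fold was 2.06 in dusp6 (interval 1.91 to 2.23) and 1.09 in WT (1.013 to 1.171), and it did not pass the edgeR test for injury (adjusted p = 0.232). The row hbz held 45 and 33 counts in dusp6 20 dpa and WT 20 dpa, against 11 and 21 counts in dusp6 uninjured and WT uninjured. hbbe2, an embryonic beta globin gene, held 15 and 12 counts after resection, against 4 and 8 uninjured, and hbbe3 held 0 in all 4 libraries. In the same order of libraries hbae1 held 2 and 5 counts against 3 and 1, and hbbe1.1 held 7 and 4 against 3 and 3. hbae3 held 2 counts in dusp6 uninjured and hbbe1.2 held 4 in WT 20 dpa, each with 0 elsewhere.

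The name hbaa2 is ambiguous. RefSeq gives it to the row si:ch211-5k11.6, while the gene name table gives it to the row si:ch211-66e2.3, which was at 5.38 CPM in dusp6 20 dpa and 8.68 CPM in WT 20 dpa, against 5.30 CPM in dusp6 uninjured and 5.85 CPM in WT uninjured.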
